A study of Mus musculus with 6 samples.

Results

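Oxidative phosphorylation is carried out by 5 protein complexes of the inner mitochondrial membrane, and most of their subunits are encoded in the nucleus. The genes described here were taken by symbol, as all names in the count tables that begin with Nduf followed by a, b, c, s or v, the 4 genes *Sdha* to *Sdhd*, *Cyc1*, and all names that begin with Uqcr, Cox4 to Cox8 or Atp5. This gave 93 of 23183 symbols. Of these, 36 belong to complex I, 4 to complex II, 9 to complex III, 20 to complex IV and 15 to complex V, so 84 code for subunits or their isoforms and close relatives. The other 9 match the names but do not code for subunits. They are 7 assembly factors of complex I (*Ndufaf1* to *Ndufaf7*), and *Atp5s* and *Atp5sl*, which are not subunits of the ATP synthase. *Ndufa4* and *Ndufa4l2* were counted with complex IV, where the *Ndufa4* protein is found.

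Complexes I and II pass electrons from NADH and from succinate to coenzyme Q. Complex III passes them on to cytochrome c and complex IV to oxygen. Complexes I, III and IV pump protons across the inner membrane, and complex V, the ATP synthase, uses the returning protons to make ATP. Some subunits of complex IV exist as pairs of isoforms, one found in most tissues and one found mainly in heart and skeletal muscle. The 13 subunits encoded by mitochondrial DNA were looked for by symbol. Of these, 0 were among the symbols counted, so they could not be analysed here.

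The data are bulk RNA-seq counts from 6 tumours of UV2237M, a mouse fibrosarcoma line (a malignant tumour of connective tissue cells), all labelled wild type. In the untreated group, 3 tumours had no treatment. In the treated group, 3 tumours were given GNC (gold nanoclusters) on day 1 and day 7, with NIR (near-infrared) irradiation. No group with nanoclusters alone or irradiation alone enters the comparison, so the parts of the treatment cannot be told apart. The labels name no animal for a tumour, so the p-values measure the spread between these 6 samples, which may be in part technical.

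The libraries held 4680295 to 8019294 counts. Untreated 2 had the fewest counts and stood apart from the others. Over all genes, the common coefficient of variation between libraries of a group was 33.7%, and 17.3% without untreated 2. The 8 fibroblast and fibrosarcoma markers had counts in every library, with the collagen gene *Col3a1* at 12570.1 to 22445 CPM and the intermediate filament gene *Vim* at 2931 to 3909 CPM. CPM are counts per 1000000 of the library's scaled total. The collagen gene *Col1a1* was at 59.4 CPM in untreated 2 and at 1975 to 4255 CPM in the other libraries. Keratinocyte markers summed to 1230.0 CPM in untreated 1 and 637 CPM in untreated 2, and to 11.2 to 69.7 CPM in the other 4. In tumour tissue, fewer cells of a type and less RNA per cell cannot be told apart.

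No oxidative phosphorylation gene passed the test for a difference between treated and untreated tumours. With all 6 libraries, edgeR's quasi-likelihood test called 0 of the 86 members with enough counts at an adjusted p under 0.05. The background was 0% of the 12517 genes tested, where the lowest adjusted p was 0.592. DESeq2 also called 0 members, against 57 genes (0.455%) of all those tested, and limma-voom called 0 members and 0 genes. Without adjustment, 0 of 86 members had a p under 0.05, against 3.32% of all tested genes on the higher side and 4.85% on the lower side. The log2 fold changes, treated against untreated, were above 0 for 42 members (49.9% of all tested genes) and below 0 for 44, with a median of -0.02 (all tested genes 0.00). The standard errors of single members lay between 0.17 and 0.64 on the log2 scale, with a median of 0.26, so a miss of the threshold does not show that a gene was alike in both groups.

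The level of the members differed between libraries of the same group. The summed level of the 86 tested members was 6188, 9654 and 6432 CPM in untreated 1, 2 and 3. It was 7776, 6704 and 7704 CPM in treated 1, 2 and 3. Untreated 2 was thus the highest library, and treated 2 lay between the other untreated and the other treated libraries. In single genes, untreated 2 was the highest of the 6 libraries in 56 of 86 members (65.1%), against 37.3% of all tested genes, and the lowest in 9, against 39.6% of all tested genes. Treated 2 was the lowest treated library in 63 of 86 members, against 36.4% of all tested genes.

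**Figure D1:**
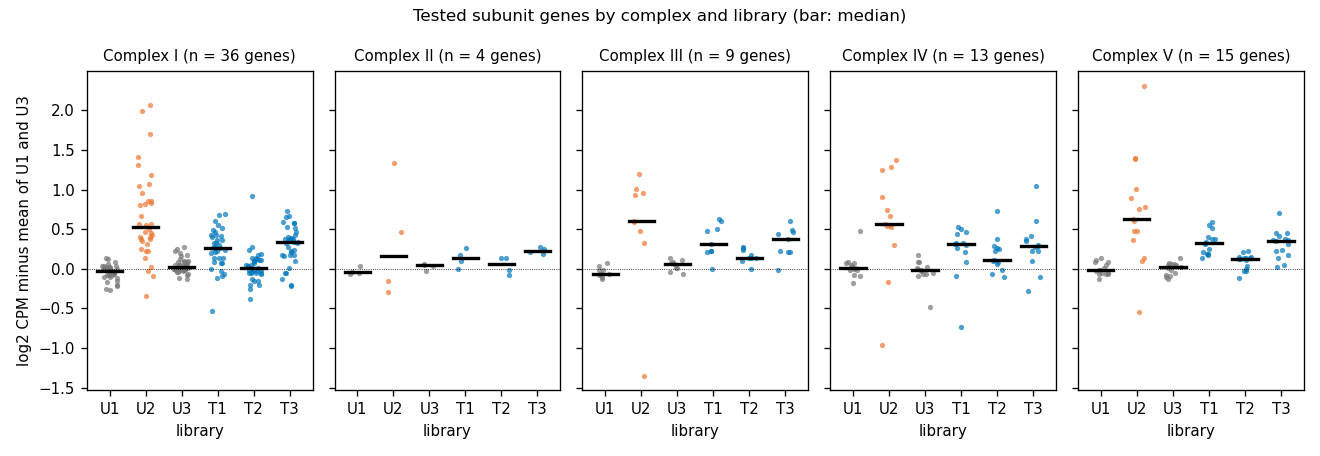
Each point is a tested subunit gene in 1 library, as its log2 CPM minus the mean of untreated 1 and 3, with bars at the median. U1 to U3 are untreated and T1 to T3 treated 1 to 3, and U1 and U3 mirror each other around 0 by construction. The untreated 2 medians lie at 0.52, 0.16, 0.60, 0.57 and 0.63 for complexes I to V, and those of treated 1 and treated 3 lie between 0.14 and 0.37.

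Against the mean of untreated 1 and 3, the median member lay 0.55 higher in untreated 2 on the log2 scale, 0.28 higher in treated 1, 0.10 higher in treated 2 and 0.30 higher in treated 3. In each of the complexes I, III, IV and V the median was highest in untreated 2 and, of these 4 libraries, lowest in treated 2. Complex II, with 4 genes, had its highest median in treated 3 (0.23). Against the mean of the other 5 libraries, 34 members were over 1.5-fold higher in untreated 2 and 4 were over 1.5-fold lower. The share of all tested genes past 1.5-fold was not counted, so these numbers have no background beside them. On the log2 scale, the median excess in untreated 2 was 0.40 over the members and -0.03 over all tested genes.

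Complex I had a median log2 fold change near 0 with all libraries, and untreated 2 was the highest library for 25 of its 36 genes. Of the 36, 14 had a log2 fold change above 0, and the median was -0.05. The summed level was 1410.1, 2322 and 1459.7 CPM in untreated 1 to 3 and 1681, 1434 and 1682 CPM in treated 1 to 3. The 7 genes of the catalytic core, which bind the flavin and the iron-sulfur clusters that carry electrons or line the quinone site, had a median of -0.14. Without untreated 2 their median was 0.14, with 6 of 7 above 0. The 12 Ndufb and Ndufc genes, small subunits of the membrane arm, had a median of -0.09, with 10 of them below 0 and 10 of them highest in untreated 2. Without untreated 2 this median was 0.17, with 11 of 12 above 0.

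*Ndufs1*, which codes for the largest iron-sulfur subunit, was at 104, 264 and 109 CPM in the untreated libraries and at 137, 121 and 137 CPM in the treated ones. The treated libraries thus lay above untreated 1 and 3 and below untreated 2. Its log2 fold change was -0.27 ± 0.38 (SE, n = 3 against 3; edgeR adjusted p = 0.801). *Ndufv1*, the flavin subunit that takes electrons from NADH, was at 77.3, 75.2 and 83.2 CPM against 94, 79 and 94.5 CPM. Untreated 2 did not stand apart for *Ndufv1*, the groups overlapped, and the log2 fold change was 0.18 ± 0.18 (adjusted p = 0.728).

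*Ndufv3* (chr17:31520115-31531331 on mm10, GENCODE M21), a small subunit beside the flavin subunit, had the smallest unadjusted p of complex I. Its levels were 40.5, 43.3 and 38.5 CPM in untreated and 27.2, 34.4 and 33.9 CPM in treated tumours. The groups did not overlap, with treated the lower, and the log2 fold change was -0.35 ± 0.19 (adjusted p = 0.597). Untreated 2 lay beside untreated 1 and 3 here. In all, 2 of 86 tested members were lower without overlap, where 10.2% of all tested genes were.

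*Ndufab1*, the mitochondrial acyl carrier protein, which is also a subunit of complex I, was at 22.4, 33.5 and 28.3 CPM in untreated and 40.8, 29.9 and 42.1 CPM in treated tumours. Treated 2 lay inside the untreated range and treated 1 and 3 above it, and the log2 fold change was 0.42 ± 0.24 (adjusted p = 0.607). *Ndufb11*, an X-linked membrane arm subunit, was at 53.5, 103 and 44.7 against 47.9, 47.3 and 44.5 CPM. Its log2 fold change of -0.52 ± 0.33 (adjusted p = 0.624) was -0.08 ± 0.13 without untreated 2. The members of complex I with the largest excess in untreated 2, chosen after seeing their values, were *Ndufb2* (36.4 CPM against 7.21 to 13.6 in the other libraries), *Ndufc2* (104 against 22.2 to 42) and *Ndufb4* (189.7 against 53.4 to 77.9).

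Complex II, succinate dehydrogenase, had 2 genes on each side of 0 and a median of 0.06. *Sdha*, the flavin subunit that oxidises succinate, was at 179, 168 and 195 CPM in untreated and 186, 205 and 225 CPM in treated tumours. Treated 2 and 3 lay above all untreated libraries and treated 1 did not, and the log2 fold change was 0.18 ± 0.19 (adjusted p = 0.728). *Sdhb*, the iron-sulfur subunit, was at 76.7, 109 and 80.6 against 89.2, 74.1 and 90 CPM, which overlapped, with a log2 fold change of -0.07 ± 0.22 (adjusted p = 0.915). Of the membrane anchors, *Sdhc* was at 77.6, 62 and 74 against 81, 75.5 and 90.3 CPM, with a log2 fold change of 0.21 ± 0.19 (adjusted p = 0.711). The other anchor, *Sdhd*, chosen after seeing its values, was at 212 CPM in untreated 2 and at 81.2 to 101 CPM in the other 5 libraries. Untreated 2 was therefore the lowest library for one anchor and the highest for the other.

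Complex III, the cytochrome bc1 complex, had 4 of 9 genes above 0 and a median of -0.02. Untreated 2 was the highest library for 7 of the 9. *Uqcrfs1*, the Rieske iron-sulfur protein, was at 50.8, 125 and 59.3 CPM in untreated and 84.9, 61.9 and 74.6 CPM in treated tumours. Its treated libraries were above untreated 1 and 3 and below untreated 2. The log2 fold change was -0.09 ± 0.37 (adjusted p = 0.941) with all libraries and 0.41 ± 0.16 (adjusted p = 0.249) without untreated 2. *Cyc1*, the cytochrome c1 subunit that hands electrons to cytochrome c, was at 76.7, 102 and 85.5 against 123, 89.5 and 123 CPM, and its log2 fold change was 0.35 ± 0.22 (adjusted p = 0.626). Treated 2 was the library in which *Cyc1* overlapped the untreated group.

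*Uqcrc1* (chr9:108936633-108949623), a core protein of complex III, went the other way in untreated 2. Its levels were 166, 67.6 and 179.8 CPM in untreated 1 to 3 and 202, 189.6 and 223 CPM in treated 1 to 3. All treated libraries lay above all untreated ones. The log2 fold change was 0.57 ± 0.37 (adjusted p = 0.628), and 0.24 ± 0.11 (adjusted p = 0.3) without untreated 2, so the size rested on untreated 2. Its partner *Uqcrc2*, the second core protein, chosen after seeing its values, was at 219.6 CPM in untreated 2 and at 99.2 to 130.0 CPM elsewhere. *Uqcrh*, the hinge protein that binds cytochrome c1, was at 83, 121 and 78.3 against 80.8, 80.8 and 79.9 CPM, with a log2 fold change of -0.23 ± 0.23 (adjusted p = 0.728) and of -0.01 ± 0.10 without untreated 2.

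Complex IV, cytochrome c oxidase, had 13 tested genes, with 7 above 0 and a median of 0.05. The other 7 of its 20 genes had too few counts to be tested, and they were the untested members: *Cox4i2*, *Cox6a2*, *Cox6b2*, *Cox7a1*, *Cox7b2*, *Cox8b* and *Cox8c*. *Cox4i1*, the most common form of subunit IV, was at 177, 156 and 174 CPM in untreated and 210.2, 183 and 227 CPM in treated tumours. The treated libraries were all the higher, and the log2 fold change was 0.29 ± 0.19 (adjusted p = 0.632). *Cox5a*, at the matrix side of the complex, was at 57, 75.2 and 65 against 88, 64.3 and 74.5 CPM, which overlapped, with a log2 fold change of 0.20 ± 0.21 (adjusted p = 0.74). *Cox6c* was at 97.1, 224 and 86.1 against 96.7, 85.6 and 84.7 CPM. Its log2 fold change of -0.61 ± 0.38 (adjusted p = 0.623), the lowest of complex IV, was -0.05 ± 0.12 without untreated 2.

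The isoform pairs of complex IV showed the forms of most tissues and few counts of the muscle forms. Levels between genes are given here per kilobase of the longest transcript, as the mean of the 6 libraries. The gene models of *Cox8a* (chr19:7215153-7217616), *Cox8b* (chr7:140898945-140900446) and *Cox6a1* (chr5:115345642-115348981) all lie on the minus strand. Subunit VIa was at 169 CPM per kilobase for *Cox6a1* and 0.901 for the muscle form *Cox6a2*. Subunit VIIa was at 79.8 for *Cox7a2* and 0.729 for the muscle form *Cox7a1*. Subunit VIII was at 244 for *Cox8a* and 0.539 for the muscle form *Cox8b*. In each pair the muscle form was by far the lower.

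The muscle forms were too low for a test. *Cox6a2* had 1, 4 and 1 counts in untreated 1 to 3 and 5, 0 and 13 counts in treated 1 to 3, which is 0.151, 0.893 and 0.123 CPM against 0.894, 0 and 1.62 CPM. *Cox7a1* had 2, 3 and 3 counts against 0, 3 and 3. *Cox8b* had 0, 3 and 1 counts against 0, 0 and 3. The highest of these 18 values was *Cox6a2* in treated 3, and the other 17 were 5 counts or fewer. Treated 3 was also the library with the most RNA of skeletal muscle markers. The 20 markers summed to 139.8, 66.1 and 36.4 CPM in untreated 1 to 3 and to 37.5, 13.5 and 581 CPM in treated 1 to 3. The skeletal actin gene *Acta1* led them, at 166 CPM in treated 3 and 0.136 to 32.2 CPM elsewhere. Of the 20 markers, 12 had counts in every library, the slow myosin gene *Myh7* was at 0 in each, and 6 more were at 0 in treated 2. The part of muscle RNA in the other members was not tested.

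**Figure D2:**
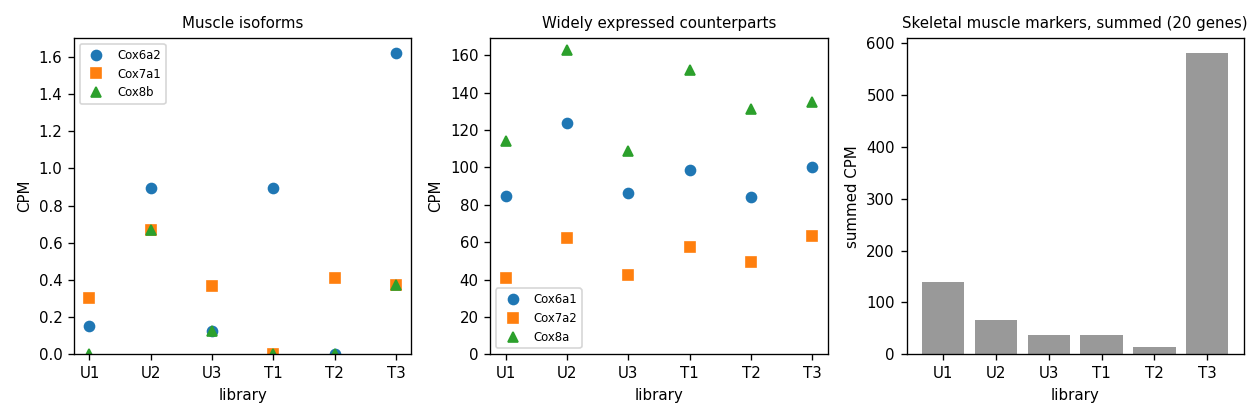
CPM of the muscle isoforms of complex IV (left) and of their widely expressed counterparts (middle), and the summed CPM of 20 skeletal muscle markers (right), by library, with U for untreated and T for treated. Treated 3 has the highest Cox6a2 value (1.62 CPM) and the highest marker sum (581 CPM), while Cox6a1, Cox7a2 and Cox8a are highest in untreated 2 or, for Cox7a2, in treated 3 (63.2 CPM).

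The forms of most tissues gave values that a test can use. *Cox6a1* was at 84.9, 124 and 86.1 CPM in untreated and 98.7, 84.3 and 100.1 CPM in treated tumours (log2 fold change -0.06 ± 0.23, adjusted p = 0.933). *Cox7a2* was at 40.8, 62 and 42.2 against 57.6, 49.6 and 63.2 CPM (0.23 ± 0.24, adjusted p = 0.728). *Cox8a* was at 114, 163 and 109 against 152, 131 and 135 CPM (0.12 ± 0.23, adjusted p = 0.859). For *Cox7a2* and *Cox8a* all treated libraries lay above untreated 1 and 3, and for *Cox6a1* treated 2 did not. Untreated 2 was above 2 of the 3 treated libraries or more in each of these genes.

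Promoters of the subunit VIII pair and of *Cox6a1* are printed here because this pair differs most in level and because the window of *Cox6a1* holds an NRF1 element. Each runs 5′ to 3′ from 250 bases before to 50 bases after the transcription start in RefSeq, on build GRCm38.p6. *Cox8a* lies on the minus strand at chr19:7217567-7217866, *Cox8b* on the minus strand at chr7:140900397-140900696 and *Cox6a1* on the minus strand at chr5:115348909-115349208. Capitals mark matches, on either strand, to the core elements of the factors NRF1 (GCGCATGCG), ETS (CCGGAAG), Sp1 (GGGCGG) and YY1 (AAGATGGCG), and to an E-box (CAGCTG) and a TATA box (TATAAA). No matches to different elements overlap in these 3 windows.
Cox8a: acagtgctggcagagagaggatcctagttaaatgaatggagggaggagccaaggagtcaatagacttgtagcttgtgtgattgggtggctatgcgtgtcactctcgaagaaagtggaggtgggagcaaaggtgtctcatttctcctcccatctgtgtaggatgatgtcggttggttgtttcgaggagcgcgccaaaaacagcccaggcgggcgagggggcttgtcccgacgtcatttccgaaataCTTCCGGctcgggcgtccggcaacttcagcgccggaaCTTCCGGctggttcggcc
Cox8b: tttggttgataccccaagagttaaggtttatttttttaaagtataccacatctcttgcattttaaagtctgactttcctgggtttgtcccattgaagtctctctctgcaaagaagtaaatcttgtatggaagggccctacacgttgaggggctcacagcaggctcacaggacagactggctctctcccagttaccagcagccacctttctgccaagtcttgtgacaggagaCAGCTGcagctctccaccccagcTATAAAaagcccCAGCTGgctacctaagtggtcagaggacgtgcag
Cox6a1: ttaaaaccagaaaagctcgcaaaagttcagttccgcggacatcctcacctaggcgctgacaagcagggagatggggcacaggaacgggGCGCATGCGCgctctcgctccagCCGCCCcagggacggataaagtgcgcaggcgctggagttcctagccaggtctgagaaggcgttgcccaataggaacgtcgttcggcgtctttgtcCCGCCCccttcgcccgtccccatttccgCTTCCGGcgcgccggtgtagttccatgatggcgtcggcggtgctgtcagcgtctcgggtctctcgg
The window of *Cox8a* is 56% G and C and holds 2 ETS matches. That of the muscle form *Cox8b* is 48.3% G and C, with 2 E-box matches and 1 TATA match. That of *Cox6a1* is 63% G and C, with 2 NRF1 matches that overlap on opposite strands, 1 ETS match and 2 Sp1 matches. The window of the muscle form *Cox7a1*, not printed here, is 53% G and C and holds no match to these elements. The muscle form *Cox6a2* had no window, so the matches of *Cox8b* do not describe the muscle forms as a set. A match is a string of letters in the window and does not show that a factor binds there.

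The isoform genes of complex IV known from the response to low oxygen were low. *Ndufa4l2*, a relative of *Ndufa4* known as a target of hypoxia-inducible factors, was at 8.02, 2.68 and 3.93 CPM in untreated and 3.22, 9.66 and 12.1 CPM in treated tumours. Treated 2 and 3 were above all untreated libraries and treated 1 was among the lowest, and the log2 fold change was 0.77 ± 0.58 (adjusted p = 0.661), the highest of the members. *Cox4i2*, the form of subunit IV linked to low oxygen, had 2, 0 and 2 counts against 2, 5 and 7 and was not tested. *Cox7a2l*, a factor that joins complexes III and IV into supercomplexes, was at 113, 189 and 113 against 106, 122 and 93.1 CPM (-0.37 ± 0.27, adjusted p = 0.647). *Cox7b2* and *Cox8c*, known from testis, had no counts in any library, and 3 counts, the limit that a count of 0 allows, would be 0.368 to 0.669 CPM. Such limits cover counting error only.

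Complex V held the members with the highest counts and also the largest excess in untreated 2. Of its 15 genes, 9 had a log2 fold change above 0, and the median was 0.07. The summed level was 2591, 4041 and 2717 CPM in untreated 1 to 3 and 3420.2, 2859 and 3349.9 CPM in treated 1 to 3. *Atp5b*, the catalytic beta subunit of the F1 head, was at 747, 1002 and 821 CPM in untreated and 1019, 860.4 and 1069.6 CPM in treated tumours, which overlapped (0.20 ± 0.22, adjusted p = 0.745). *Atp5a1*, the alpha subunit beside it, was at 638, 444 and 663 against 849, 712 and 808 CPM. The *Atp5a1* groups did not overlap, and the log2 fold change of 0.44 ± 0.23 had an adjusted p of 0.594, the lowest of the members. Without untreated 2 it was 0.27 ± 0.12 (adjusted p = 0.285). Untreated 2 was the lowest of the 6 libraries for the alpha subunit and the highest of the untreated libraries for the beta subunit.

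*Atp5l* (chr9:44912557-44920742), subunit g of the membrane part, had the largest excess of any member in untreated 2, at 2.24 on the log2 scale over the mean of the other 5. It was at 118, 536 and 98.3 CPM in untreated and 134, 106 and 112 CPM in treated tumours. Its log2 fold change was -1.10 ± 0.64 (adjusted p = 0.611) with all libraries and 0.11 ± 0.14 (adjusted p = 0.697) without untreated 2. Its coding sequence has 9 near-identical copies elsewhere among annotated transcripts, so its count is uncertain. *Atp5h*, subunit d of the stalk that holds the head in place, has 4 such copies. It was at 73.4, 81.5 and 78.5 against 94.2, 82 and 89.5 CPM, without overlap (0.19 ± 0.18, adjusted p = 0.714). In all, 23 members have a copy of at least 100 bases with at least 95% identity, 21 of them with a pseudogene copy, and reads of these genes may be split between copies by the authors' counting.

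Without overlap and higher in the treated tumours were 6 of the 86 members, where 10.6% of all tested genes were so. Beside *Atp5a1*, *Atp5h*, *Cox4i1* and *Uqcrc1* these were *Ndufb10*, a membrane arm subunit of complex I, and the assembly factor *Ndufaf5*, both chosen after seeing their values. The share of members is below that of all tested genes. *Ndufb10* was at 30.6, 32.1 and 32.9 against 34.7, 34.8 and 47.6 CPM. *Ndufaf5* was at 9.38, 9.37 and 9.08 against 12.3, 12.7 and 11.1 CPM. In both, untreated 2 lay with the other untreated libraries.

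The 7 assembly factors of complex I had a median of 0.06, with 5 above 0, and summed to 85.5, 132 and 92.3 CPM in untreated and 118, 97.4 and 114 CPM in treated tumours. The other 2 genes carry the Atp5 name but are not subunits of the ATP synthase. Of these, *Atp5s* was at 5.89 to 10.9 CPM in untreated and 4.83 to 7.21 CPM in treated tumours, and *Atp5sl* was at 8.48 to 17.3 against 14.1 to 19.8 CPM. Untreated 2 was the highest library for *Atp5s* and the lowest for *Atp5sl*. Both were chosen after seeing their values.

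With untreated 2 left out, most members were higher in the treated tumours, though none passed the test. Untreated 2 was the highest library in 56 of the 86 members, so leaving it out raised their log2 fold changes by construction. The members share the same libraries, so counts of members are not counts of independent results. Of the 86 members, 75 then had a log2 fold change above 0, against 50.1% of the 12836 genes tested, and 35 members had changed sign. The median was 0.23 over the members, and 0.20, 0.12, 0.28, 0.29 and 0.25 for complexes I to V. The 4 genes of complex II and the 15 of complex V all lay above 0. Again 0 of 86 members were called (0% of all tested genes), with a lowest adjusted p of 0.227. The median standard error was 0.14. Of the markers of other cell types, the summed level of the macrophage markers went with the groups, and the neutrophil and endothelial sums overlapped. The 6 macrophage markers, with counts in every library, summed to 778, 1295 and 817 CPM in untreated 1 to 3. In treated 1 to 3 they summed to 340.0, 635 and 503 CPM, all below the untreated sums. With all 6 libraries, 4 of these markers were lower without overlap (10.2% of all tested genes). *Cd68* overlapped, at 39.2, 45.5 and 64.5 CPM in untreated and 33.6, 58.1 and 62.7 CPM in treated tumours. *Adgre1* overlapped too, at 77.7, 179 and 84.4 CPM in untreated and 24.7, 80.9 and 37.1 CPM in treated tumours. The 4 neutrophil markers in the tables summed to 13.5, 18.1 and 41.2 against 81, 34.3 and 72.9 CPM, and the 5 endothelial markers to 80, 79.9 and 138 against 110.5, 148 and 175 CPM. The 5 T cell markers summed to 0.715 to 6.35 CPM, with *Cd3e* at 0 in every library, and the 8 adipocyte markers to 9.3 to 27.9 CPM. The part of these cells in the levels of the members was not tested.

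At an unadjusted p under 0.05 lay 15 members, all higher in treated tumours, where 9.55% of all tested genes were higher and 8.85% lower. By role these were *Ndufs1*, *Ndufa12* and *Ndufab1* of complex I, *Cyc1*, *Uqcrfs1*, *Uqcr11* and *Uqcrq* of complex III, *Cox6b1*, *Cox7a2*, *Cox8a* and *Ndufa4* of complex IV, and *Atp5b*, *Atp5d* and *Atp5g1* of complex V, with the assembly factor *Ndufaf4*. The smallest p was that of *Ndufaf4*, at 21.3 and 25 CPM in untreated 1 and 3 against 40.4, 29.5 and 34.7 CPM, with 51.1 CPM in untreated 2. *Ndufaf4* was chosen after seeing its values. With a further library left out, the 15 became 35 without treated 2 (14.3% of all tested genes), 8 without untreated 3 (8.86%), 7 without treated 3 (5.39%), 5 without treated 1 (6.58%) and 1 without untreated 1 (1.57%).

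Without untreated 2, 37 members were higher in all 3 treated libraries than in untreated 1 and 3, against 19.2% of all tested genes, and 2, *Ndufv3* among them, were lower, against 20.0%. The 2 groups of complex III genes that carry electrons or form the core, 2 genes each, were all among the higher. The 37 became 63 without treated 2, where 30.6% of all tested genes were higher without overlap, and 57 without untreated 3, where 33.3% were. The 11 members below 0 included *Ndufa11*, *Ndufb11* and *Ndufv3* of complex I, *Uqcrh* of complex III, *Cox6c* and *Cox7a2l* of complex IV, the assembly factors *Ndufaf3* and *Ndufaf6*, and *Atp5s* and *Atp5sl*.

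**Figure D3:**
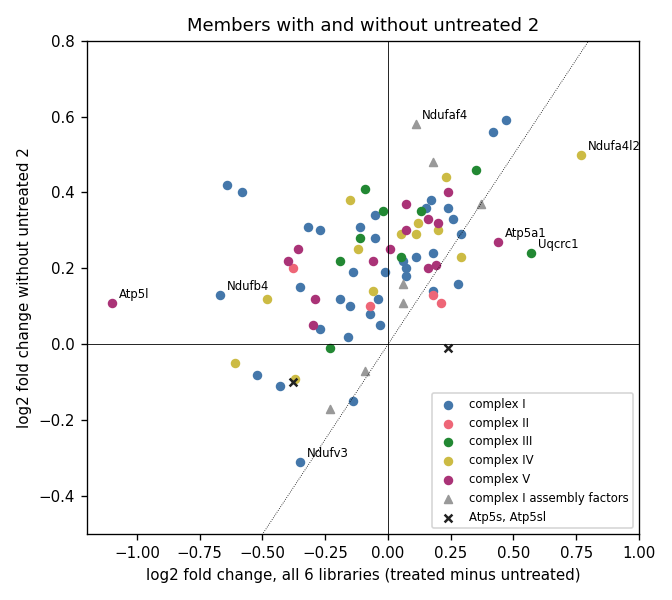
Log2 fold change, treated against untreated, of each of the 86 tested members with all 6 libraries (horizontal axis) and without untreated 2 (vertical axis), by complex. The dotted line marks equal values. Without untreated 2, 75 members lie above 0, against 42 with all libraries, and Atp5l moves from -1.10 to 0.11.

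The tested genes were cut into 5 bins of equal size by the G and C content or by the length of their transcripts. The excess in untreated 2 went with sequence composition and length over all genes, and the members are short. In the bin with the least G and C in the transcript (31 to 44.2%), the median gene was 0.76 higher in untreated 2 than in the mean of the other 5 libraries, on the log2 scale. In the bin with the most (55.8 to 71.3%) it was 0.73 lower (a median of -0.73). The members had medians of 0.79, 0.56, 0.42, 0.38 and 0.34 from the lowest to the highest bin, over 10, 15, 26, 19 and 16 genes. All tested genes had 0.76, 0.18, -0.13, -0.43 and -0.73. In the upper 3 bins the members thus lay above 0 while the median of all tested genes lay below.

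By length, 72 of 86 members lay in the bin of the shortest tested genes (145 to 1803 bases). Their median there was 0.42 in untreated 2, and that of all tested genes of this length was 0.36. The median transcript length was 977 bases for the members and 3161 bases for all tested genes. Spearman's correlation of the untreated 2 excess with G and C content, across genes that share the same 6 libraries, was -0.29 over the 86 members and -0.46 over all tested genes. With length it was -0.15 and -0.28. With a trend in G and C content and length removed from each library, 0 members were called, 2 were higher and 1 lower at an unadjusted p under 0.05 (6.28% and 7.01% of all tested genes), and the median of the members was 0.09. Of the 86 members, 57 were then above 0, against 48.6% of all tested genes. How far composition, length or RNA quality set the levels in untreated 2 was not tested.

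**Figure D4:**
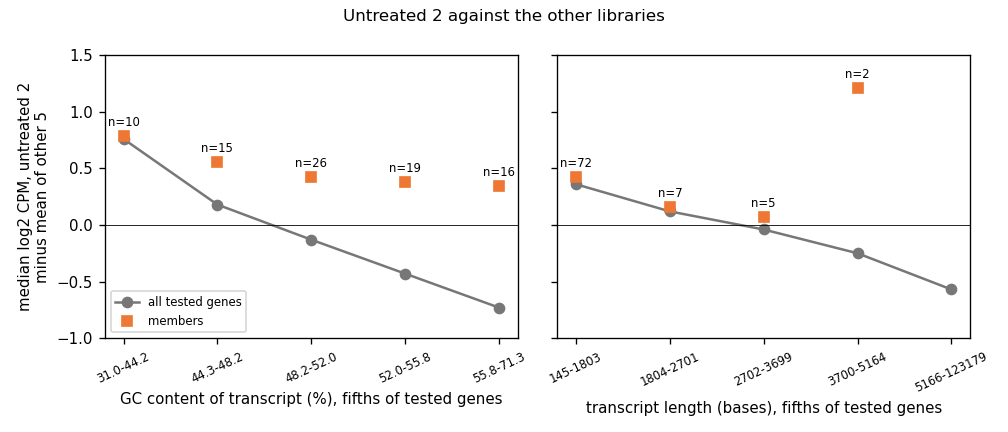
Median log2 CPM in untreated 2 minus the mean of the other 5 libraries, for all tested genes (circles) and for the members (squares, with their number), in 5 bins of tested genes by transcript G and C content (left) and transcript length (right). The members run from 0.79 to 0.34 with rising G and C content, and all tested genes from 0.76 to -0.73.

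Other genes of mitochondrial energy metabolism were read from 10 lists, of which the complex I assembly list also holds the 7 Ndufaf members. In these lists 0 genes were called with all libraries or without untreated 2. Of the 77 mitochondrial ribosome genes, which make the proteins encoded in mitochondrial DNA, 54 were above 0 (median 0.09), and 71 without untreated 2 (median 0.28). *Mrpl39* had the smallest p of these, at 21.2, 20.8 and 23.2 CPM in untreated and 30, 27.7 and 30.5 CPM in treated tumours (0.44 ± 0.18, adjusted p = 0.592). Of the 16 genes of the TCA cycle and pyruvate dehydrogenase, which supply the NADH and succinate, 7 were above 0, and 15 without untreated 2. *Idh3a*, of the NAD-dependent isocitrate dehydrogenase, was at 43.6, 56.5 and 60.7 against 78.3, 58.9 and 84.8 CPM (0.47 ± 0.23, adjusted p = 0.592).

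The assembly factors of complex IV had 12 of 20 genes above 0, and 19 without untreated 2. Among them was *Lrpprc*, which stabilises mitochondrial messenger RNAs, at 80.2, 80.1 and 99 CPM in untreated and 142, 126 and 145 CPM in treated tumours. Its groups did not overlap, untreated 2 lay with the other untreated libraries, and the log2 fold change was 0.67 ± 0.19 (adjusted p = 0.592). Of the complex I assembly list, *Tmem126b* was at 7.41, 13.4 and 7.85 against 4.47, 5.17 and 6.59 CPM (-0.80 ± 0.34, adjusted p = 0.592). The 4 assembly factors of complex II were all below 0 (median -0.42). Without untreated 2 their median was 0.00, with a range of -0.05 to 0.06. The smallest p there was that of *Sdhaf4*, at 23.2 CPM in untreated 2 and 8.45 to 10.7 CPM elsewhere.

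The lists of complex III assembly (4 of 6 genes above 0, and 4 without untreated 2), complex V assembly and inhibitor (3 of 4, and 4) and inner membrane carriers (3 of 7, and 6) were small. In these the smallest p belonged to *Uqcc1* (0.21 ± 0.21), to *Atpif1*, the inhibitor of the ATP synthase (-0.23 ± 0.26), and to *Vdac2*, a pore of the outer membrane. *Vdac2* was at 106, 99.1 and 117 CPM in untreated and 142, 130.4 and 163 CPM in treated tumours (0.43 ± 0.19, adjusted p = 0.592), without overlap. Of 15 genes of coenzyme Q synthesis and other electron carriers, 8 were above 0, and 11 without untreated 2. *Coq4* was at 9.68, 7.81 and 7.48 against 13.9, 8.84 and 14.8 CPM (0.59 ± 0.29, adjusted p = 0.592).

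The regulators of mitochondrial gene expression differed from the subunits in untreated 2. Of 12 tested regulators, untreated 2 was the lowest library for 7 (39.6% of all tested genes) and the highest for 3 (37.3%). Their median excess there was -0.42. Their median transcript length was 3954 bases, and all tested genes of 3700 to 5164 bases had a median of -0.25 in untreated 2. The part of length in this was not tested. With all libraries 9 were above 0 (median 0.27), and 11 without untreated 2 (median 0.12). *Polg*, the mitochondrial DNA polymerase, was at 76.4, 47.1 and 79.1 CPM in untreated and 101, 88.6 and 103 CPM in treated tumours (0.53 ± 0.25, adjusted p = 0.592). The groups of *Polg* did not overlap.

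Promoter sequence is a feature that the choice by name did not use. Windows of 300 bases were given in RefSeq for 76 of the 93 members, 73 by symbol and 3 by an older name, and 72 of these 76 were tested genes. The NRF1 element (GCGCATGCG) was present in 10 of 72 genes (13.9%), against 4.26% of 9460 tested genes and 1.95% of all 27025 genes with a window. The 10 were *Atp5g2*, *Atp5k*, *Atp5l*, *Cox6a1*, *Ndufa8*, *Ndufa11*, *Ndufaf4*, *Ndufaf5*, *Uqcr11* and *Uqcrc1*. The YY1 element (AAGATGGCG) was present in 11.1% of members, 3.63% of tested genes and 1.64% of all genes. The ETS core (CCGGAAG) was present in 23.6%, 20.1% and 9.93%, and the Sp1 core (GGGCGG) in 44.4%, 68.8% and 38.2%.

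The E-box CAGCTG, an element known from muscle genes, was present in 6.94% of members, 17.9% of tested genes and 18.3% of all genes. The TATA box TATAAA was present in 6.94%, 8.91% and 15.7%. These shares are descriptions of the windows with no test. A gene with several windows counted as holding an element when any of them did. The number of windows per gene may therefore enter the shares. Among the NRF1 genes, untreated 2 was the highest library for *Atp5l* (536 CPM), *Atp5g2* (424 CPM against 154 to 203) and *Cox6a1* (124 CPM). It was also the highest for *Atp5k*, *Ndufa11*, *Ndufaf4* and *Uqcr11*. It was the lowest for *Uqcrc1* (67.6 CPM), and neither for *Ndufa8* and *Ndufaf5*. Of all tested members, untreated 2 was the highest library for 65.1%.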

How the data were processed

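RNA from 6 tumours was analysed, 3 untreated and 3 treated, grouped by the labels' titles. The deposited values were whole-number counts per gene symbol, made by the authors with TopHat on mm10, per the submitters' processing notes. Which program counted reads, with what annotation and strand setting, is not given in the sources used here, so reads of overlapping and antisense genes cannot be told apart, though the library kit keeps strand per the labels' protocols. Counts were tested with edgeR 4.0.16 (R 4.3.3): filterByExpr at a smallest count of 10, TMM scaling, the 2-sided quasi-likelihood test and Benjamini-Hochberg adjustment over all 12517 tested genes, with 0.05 as the threshold. CPM use the TMM library sizes, and means per kilobase are over the longest protein-coding transcript in GENCODE M21. The SE is the size of the log2 fold change divided by the root of F. Alternatives used DESeq2 1.42.0 and limma 3.58.1 (limma-voom). The steps were tested on simulated data, with changes larger than those of the members and the same spread in every library. This does not show how well changes of the members' size are found.

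The members, lists and promoter elements were chosen with earlier results of these data known. After a first search had been seen, the NRF1 element was shortened by 1 letter and a search for an MEF2 element was dropped, both because of a limit on the length of written elements. The counts include 1 member whose own values are not reported here. Genes named are the isoform pairs of complex IV, fixed core subunits of each complex, *Ndufa4l2*, *Cox4i2* and *Cox7a2l*, the 3 members with the smallest p per complex (1 for complex II) and the 1 with the smallest p per list. Others are said to be chosen after seeing their values, which also holds for members listed by a count. Replicate numbers did not pair the libraries. No libraries agreed within sampling noise (chi-square per gene 5.64 or more over genes with at least 20 counts).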

Additional observations from a re-analysis of the deposited data

How the results depend on the processing

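With each alternative run, 0 members were called. Of all tested genes, 0.455% were called by DESeq2 and 2.13% by DESeq2 and without untreated 2. From 0% to 0.0313% were called under the other alternatives that left more than 1 library in each group. At an unadjusted p under 0.05 were 2 members higher and 1 lower with the GC and length correction (6.28% and 7.01% of all tested genes), 16 and 1 with quality weights (11.5% and 10.3%), and 13 and 0 with DESeq2 and without untreated 2 (8.76% and 7.25%). Members above 0 were 75 with quality weights (50.6% of all tested genes) and 75 with DESeq2 and without untreated 2 (50.1%). The quality weights, set by limma-voom from the same counts, were 0.0791 for untreated 2 and 1.18 to 2.11 for the other libraries. Both runs thus gave untreated 2 little or no part, and their likeness is not independent support. With the GC and length correction 57 members were above 0 (48.6% of all tested genes). Members without overlap were 13 higher and 4 lower with the GC and length correction (12.9% and 12.1% of all tested genes), and 37 higher and 2 lower with DESeq2 and without untreated 2 (19.1% and 20.2%). With the GC and length correction, the share of members higher without overlap was near that of all tested genes.

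Of the 528 values of named genes under alternatives, 477 kept their direction and 51 did not. In DESeq2 and without untreated 2, *Cox6a1* was at 0.14, *Ndufs1* at 0.30, *Sdhb* at 0.09, *Uqcrfs1* at 0.41 and *Atp5l* at 0.11 on the log2 scale. With quality weights these were 0.14, 0.29, 0.10, 0.41 and 0.09. With the GC and length correction *Cox6a1* was at 0.00 and *Uqcrfs1* at 0.07, and *Uqcrfs1* was at 0.02 with limma-voom. Same-numbered libraries did not deviate together (correlations -0.18, -0.11 and 0.11), and with the replicate number as a block (replicate block) 46 members were above 0, with a median of 0.03, and *Uqcrfs1* was at 0.03.

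Leaving out 1 library, or untreated 2 with a second chosen after seeing the data, gave 0 to 35 members higher and 0 to 1 lower at an unadjusted p under 0.05, 32 to 78 above 0, 6 to 63 higher and 2 to 6 lower without overlap, and a median for complex III of -0.22 to 0.37. The shares of all tested genes moved with the libraries left out: 0.702% to 14.3% were higher and 1.77% to 11.5% lower at an unadjusted p under 0.05, 48.5% to 52.2% were above 0, and 11.8% to 33.3% were higher and 12.0% to 34.2% lower without overlap. The named genes whose direction turned ranged from -0.17 to 0.22 for *Cox6a1*, -0.51 to 0.37 for *Ndufs1*, -0.18 to 0.19 for *Sdhb*, -0.33 to 0.54 for *Uqcrfs1*, -0.75 to 0.05 for *Ndufb11*, -0.34 to 0.03 for *Uqcrh*, -0.85 to 0.04 for *Cox6c*, -0.51 to 0.02 for *Cox7a2l* and -1.48 to 0.24 for *Atp5l*. Leaving out untreated 2 with a second untreated library left 1 untreated library, so those values have no spread between untreated libraries behind them. The cause was not tested.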
